A study of Mus musculus with 12 samples.

Results

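Annexins are cytosolic proteins that bind membranes rich in acidic phospholipids when calcium rises. Their conserved carboxy-terminal core carries the calcium and lipid sites, and a variable amino-terminal tail carries the sites for partners such as S100 proteins. They are known for linking membranes to the actin cytoskeleton, for organising vesicle traffic and for sealing wounded plasma membranes, and several are abundant in the heart, where fibroblasts, vascular cells and muscle cells carry different members. The 9 genes followed here, Anxa1 to Anxa8 and Anxa11, were taken by symbol as a gene family. A gene was represented by its brightest probe set (a group of short probes read as 1 signal), and this gave a value for 8 of the 9 annexins among 18193 named genes on the array. All 8 were bright enough to be tested, together with 13145 genes in all. The probe set that names Anxa11 names 2 other genes as well and was the only one found for it, so Anxa11 has no value here.

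The samples came from CGR8, 1 line of feeder-free murine embryonic stem cells, studied at 4 stages with 3 arrays each. ES-LIF(+) cells were grown in 7.5% fetal bovine serum with leukemia inhibitory factor (LIF), the cytokine that maintains self-renewal, and ES-LIF(-) cells were kept 48 h in the same serum without it. Cardiopoietic cells (CP) were obtained from stem cells stimulated with a cocktail of growth factors and interleukins (BMP, TGFβ, IL-13, IL3, IGF1, VEGF, EGF, FGF and IL6) and were held 5 days in 3% serum with 30 ng/ml TNFα, and cardiomyocytes (CM) came from the same stimulation followed by 9 days in 20% serum. CP and CM cells were enriched on a Percoll gradient, so stage, serum, time, cytokines and enrichment changed together and cannot be told apart. Each stage was sampled independently 3 times from the 1 line, so the p-values measure the spread between samples of that line.

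Signals were linear MAS 5.0 values scaled by the authors to 1 trimmed mean on every array. Array medians lay between 128.9 and 136.3 in CP and between 127.7 and 144.1 in CM, against 101 to 110.9 in ES-LIF(+) and 104.3 to 110.2 in ES-LIF(-). On the log2 scale the median of all probe sets was therefore 0.28 higher in CP and 0.32 higher in CM than in ES-LIF(+), while the median over the tested genes differed by 0.04 and 0.06. Centring arrays on their medians moved the share of calls that were higher from 58.4% to 30.6% for CP against ES-LIF(+) and from 51.7% to 33.2% for CM against ES-LIF(+), and the annexin calls that this centring changed are given beside them. A gene was called when its Benjamini-Hochberg adjusted p in limma was under 0.05 and its fold was above 1.5. The fold is taken on log2(signal + 16), which understates the change of dim genes. For the dim marker Tnnt2 in CP against ES-LIF(+) the fold was 20.3, while the ratio of mean signals was 52.3.

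The annexins lie on 7 mouse chromosomes in GRCm38.p6, with Anxa7, Anxa8 and Anxa11 on chromosome 14. The stretch of 250 bases before the RefSeq start site was found for 7 of the 9 genes, and 4 are printed to show genes of 3 stage patterns: Anxa1 and Anxa2 were high in both CP and CM, Anxa8 was higher in CP than in CM, and Anxa7 was called in no comparison. Capitals mark any match, on either strand, to one of 5 short motifs, and each stretch runs 5′ to 3′ towards the start. The letters searched were TATAAA for the TATA box, which positions the polymerase, and GGGCGG for the GC box, which Sp1 family factors bind. They were also TGANTCA for the AP-1 site, and CATTCC for the site of TEAD factors, and the last motif was the CCAAT box by its own letters. No motif overlapped another. Where 2 starts were listed, for Anxa4 and Anxa7, the one farthest upstream was used. Anxa1 (chr19:20390672-20390921, minus strand), Anxa2 (chr9:69453433-69453682, plus strand), Anxa7 (chr14:20480134-20480383, minus strand) and Anxa8 (chr14:34085729-34085978, plus strand) read as follows.
Anxa1: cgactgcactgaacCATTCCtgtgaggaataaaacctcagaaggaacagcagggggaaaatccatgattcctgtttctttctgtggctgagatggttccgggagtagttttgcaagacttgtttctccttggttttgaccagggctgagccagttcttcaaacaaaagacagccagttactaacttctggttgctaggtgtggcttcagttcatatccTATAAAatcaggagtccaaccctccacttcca
Anxa2: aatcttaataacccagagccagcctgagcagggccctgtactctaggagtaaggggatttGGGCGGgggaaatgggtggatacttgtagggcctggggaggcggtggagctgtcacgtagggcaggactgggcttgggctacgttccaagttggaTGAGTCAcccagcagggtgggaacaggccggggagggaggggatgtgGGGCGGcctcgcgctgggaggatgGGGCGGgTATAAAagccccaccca
Anxa7: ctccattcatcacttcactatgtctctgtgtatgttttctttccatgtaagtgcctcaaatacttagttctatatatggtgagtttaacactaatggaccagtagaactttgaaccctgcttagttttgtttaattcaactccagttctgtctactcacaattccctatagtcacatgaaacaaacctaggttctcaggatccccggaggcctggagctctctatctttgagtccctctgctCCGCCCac
Anxa8: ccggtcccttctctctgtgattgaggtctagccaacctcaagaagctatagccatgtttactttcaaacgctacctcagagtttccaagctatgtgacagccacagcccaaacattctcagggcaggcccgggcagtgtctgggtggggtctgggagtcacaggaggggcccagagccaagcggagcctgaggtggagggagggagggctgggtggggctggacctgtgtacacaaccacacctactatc

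The Anxa1 stretch held a TATA box whose first base lay 32 bases before the start and a TEAD match 236 bases before it. The Anxa2 stretch held a TATA box at 17 bases, GC boxes at 24, 48 and 190 bases and an AP-1 match at 95 bases. Anxa7 held a single GC box, on the opposite strand to the one shown, 8 bases before its start, and Anxa8 held none of the motifs. Neither Anxa4 nor Anxa5 held a match, and Anxa11 held GC boxes at 15, 34 and 53 bases. Among all 32851 promoters of this length, 12.4% held the TATA box, 33.8% the CCAAT box, 32.7% the GC box, 6.75% the AP-1 letters and 12.6% the TEAD letters. The GC content was 46% in Anxa1, 62.4% in Anxa2, 42.4% in Anxa7 and 58% in Anxa8, against a median of 52.4% over all promoters, and the CpG counts were 2, 9, 2 and 4 in the same order, against a median of 6. A match is a run of letters and was not tested as a binding site.

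Against ES-LIF(+), the call rule found 7 of the 8 annexins higher in CP and 0 lower, where 32.0% of all tested genes were called, 18.7% higher and 13.3% lower. The median log2 fold change over the 8 was 2.15, against 0.04 over all tested genes. In CM, 7 of 8 were again higher than in ES-LIF(+) and 0 lower, where 49.6% of tested genes were called, 25.7% higher and 23.9% lower, with a median of 2.23 against 0.06. Both comparisons share the ES-LIF(+) arrays. Over the 4 stages together, 7 of 8 annexins passed the moderated F test, which 73.1% of tested genes passed, and Anxa7 was the exception (adjusted p = 0.0565). Anxa7 passed as well, for a count of 8, with median centring and without ES-LIF(-) replicate 3, CM replicate 2 or CM replicate 3. Anxa1, Anxa2 and Anxa5 also stand in the study's own list of genes raised in cardiopoietic cells, which was chosen on these samples, so their direction here is not independent evidence of it.

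**Figure D1:**
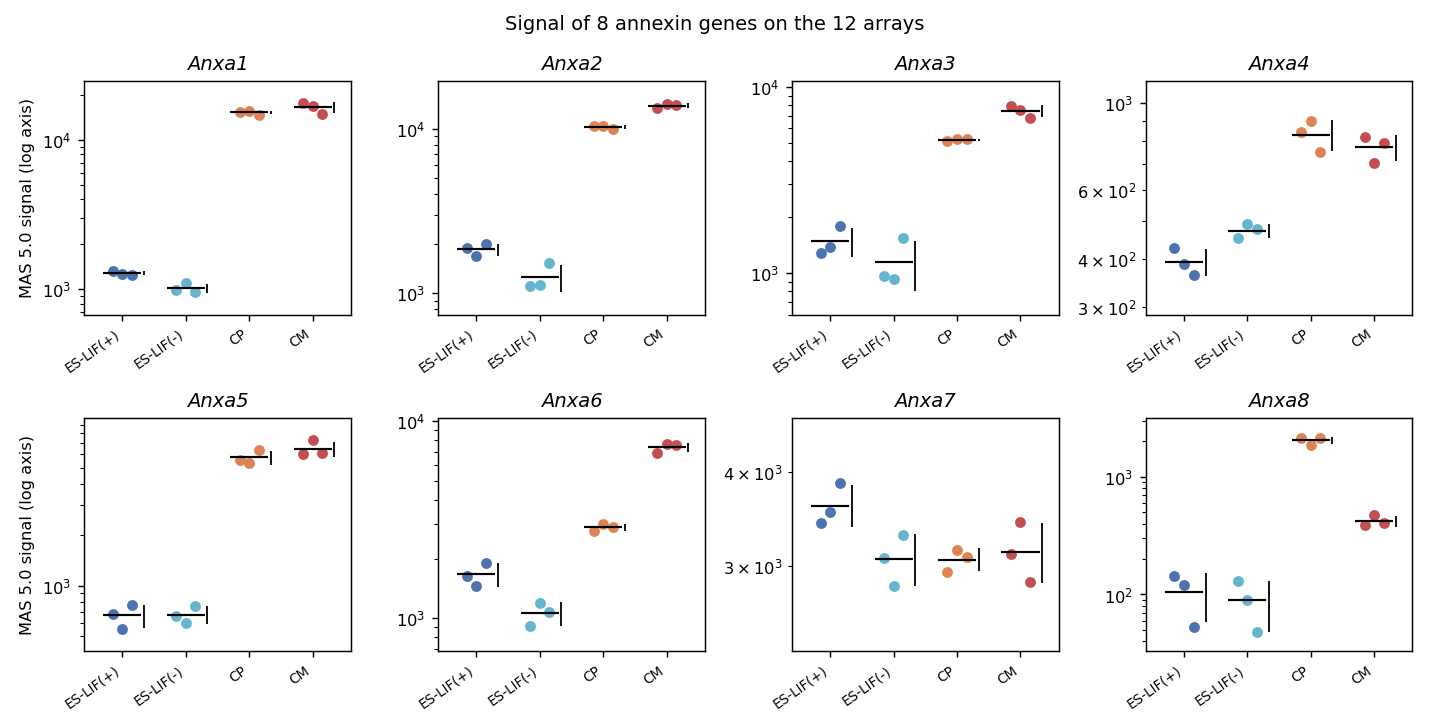
MAS 5.0 signal of 8 annexin genes on 12 arrays, on log axes that differ between genes, where points are arrays, horizontal bars the means of 3 arrays and vertical bars the SD. Anxa1, Anxa2, Anxa3 and Anxa5 sat high in CP and CM, Anxa6 stepped up again in CM, Anxa8 was highest in CP, and Anxa7 stayed between 2826 and 3866.3 on every array.

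Anxa1, the glucocorticoid-regulated annexin known for restraining inflammation and for an early link to phospholipase A2 inhibition, read 1321.7, 1258.5 and 1244.7 in ES-LIF(+), 984.8, 1093.1 and 954.6 in ES-LIF(-), 15376.7, 15541.6 and 14760.7 in CP, and 17583.7, 16793.1 and 14961.6 in CM. Every CP and CM array lay far above every stem cell array, and the CP and CM arrays overlapped each other. The mean was 15226 ± 412 in CP and 16446 ± 1345 in CM, against 1275 ± 41.1 in ES-LIF(+) (SD, n = 3 each). The log2 fold change was 3.56 in CP (11.8-fold, SE 0.075, adjusted p = 8.19e-14) and 3.67 in CM (12.7-fold, adjusted p = 2.98e-14).

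Anxa5, the phosphatidylserine binder used as a probe of apoptotic cells, was high in CP and CM and was not called between the stem cell stages. It read 673.6, 555.6 and 767.3 in ES-LIF(+), 656.7, 597.3 and 759.8 in ES-LIF(-), 5545.2, 5362.6 and 6371.7 in CP, and 6065.8, 7266.1 and 6117.4 in CM. The 6 stem cell arrays were intermixed, and the 6 CP and CM arrays were intermixed, with no overlap between the 2 sets. Against ES-LIF(+) the log2 fold change was 3.09 in CP (8.52-fold, SE 0.12, adjusted p = 5.88e-11) and 3.26 in CM (9.58-fold, adjusted p = 1.43e-11).

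Anxa2, which pairs with S100a10 and binds actin and plasminogen pathway proteins at the cell surface, read 1872.6, 1670.8 and 1983.2 in ES-LIF(+), 1097.3, 1125.7 and 1515.4 in ES-LIF(-), 10403.8, 10493.1 and 9962.1 in CP, and 13467.1, 14279.9 and 13925 in CM. No stage overlapped another for this gene. In log2 terms the change against ES-LIF(+) was 2.47 in CP (5.56-fold, SE 0.10, adjusted p = 1.09e-10) and 2.91 in CM (adjusted p = 8.46e-12).

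Anxa3, a less studied annexin known from neutrophil granules and vascular growth, followed the same order of stages. It read 1288.7, 1377.6 and 1786.5 in ES-LIF(+), 971.6, 933.7 and 1546.4 in ES-LIF(-), 5157.1, 5263.9 and 5229.4 in CP, and 7935.3, 7575.4 and 6861.9 in CM. Stem cell arrays overlapped between the LIF conditions, and replicate 3 was the highest array in each of them. Its log2 fold change against ES-LIF(+) was 1.82 in CP (3.52-fold, SE 0.16, adjusted p = 3.06e-07) and 2.33 in CM (5.02-fold, adjusted p = 7.14e-09).

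**Figure D2:**
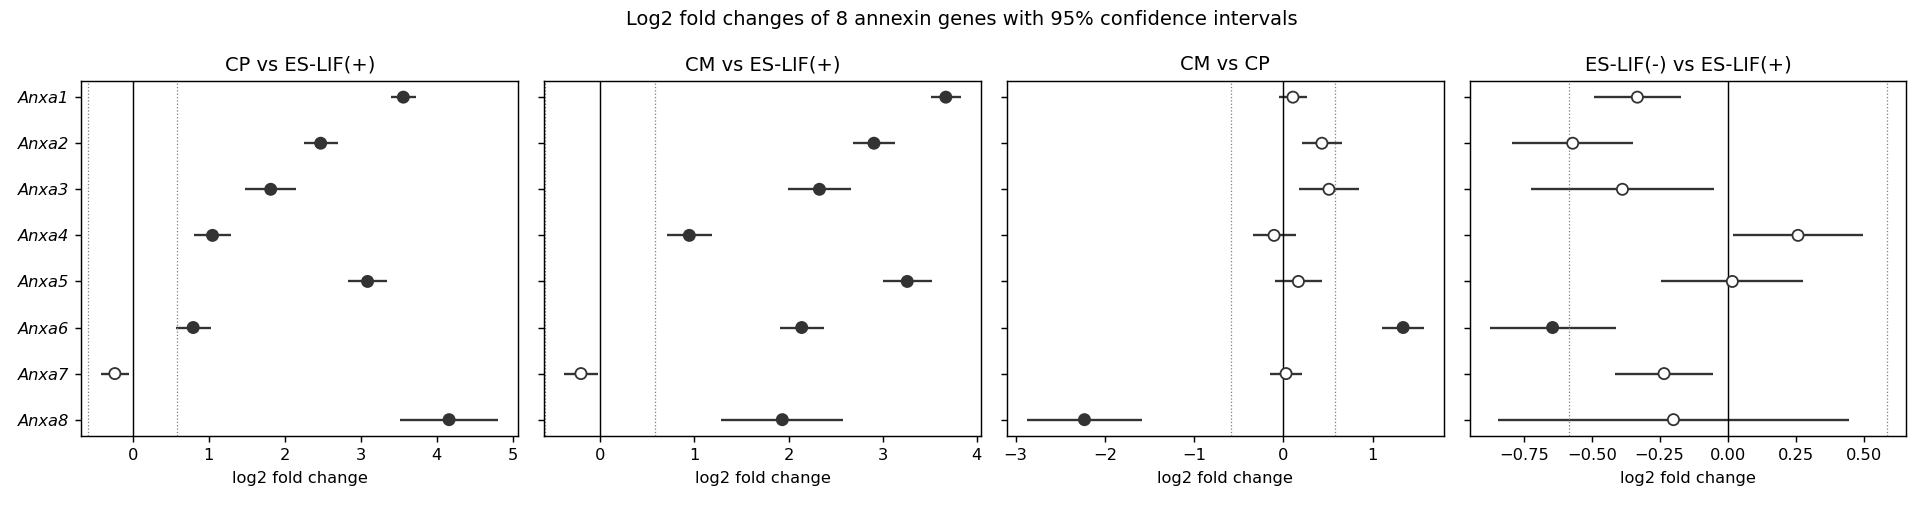
Log2 fold change of 8 annexin genes in 4 comparisons, with 95% confidence intervals from the fit, where filled points passed the call rule, open points did not, and dotted lines mark 1.5-fold. There are 7 filled genes in CP and in CM against ES-LIF(+), with Anxa6 and Anxa8 filled in CM against CP and Anxa6 in ES-LIF(-) against ES-LIF(+), on horizontal scales that differ between panels.

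Anxa4, known from epithelia and secretory cells, had the smallest change in CM among the 7 genes that rose there. It read 426.1, 387.6 and 364.2 in ES-LIF(+), 450.8, 489.9 and 476.3 in ES-LIF(-), 844.3, 900.8 and 749 in CP, and 820, 704.6 and 791.3 in CM. CP and CM overlapped and both stood above the stem cell arrays. The log2 fold change against ES-LIF(+) was 1.05 in CP (2.07-fold, SE 0.11, adjusted p = 2.57e-06) and 0.95 in CM (1.93-fold, adjusted p = 3.13e-06). Against ES-LIF(-) it was 0.79 in CP (adjusted p = 3.64e-05) and 0.69 in CM (adjusted p = 7.8e-05), and centring arrays on their medians took both under 1.5-fold, at 0.52 and 0.38.

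Anxa6, whose core is duplicated and which is an abundant annexin of cardiac muscle, was the one member whose neighbouring stages were all called different. It read 1638.8, 1453.1 and 1915 in ES-LIF(+), 909.3, 1194.3 and 1082.4 in ES-LIF(-), 2757.8, 3016.9 and 2909.5 in CP, and 6897.4, 7667.3 and 7554.4 in CM. The 4 stages did not overlap. The mean was 2895 ± 130 in CP and 7373 ± 416 in CM, against 1669 ± 232 in ES-LIF(+) (SD, n = 3 each). Against ES-LIF(+) its log2 fold change was 0.80 in CP (1.74-fold, SE 0.11, adjusted p = 2.59e-05) and 2.14 in CM (4.41-fold, adjusted p = 3.3e-10). Median centring left the CP difference at 0.51 (adjusted p = 0.00399), under the 1.5-fold limit.

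Anxa8, known as vascular anticoagulant beta and from epithelia, had the largest CP fold of the family. It read 143.6, 121 and 52.7 in ES-LIF(+), 131.3, 89.6 and 47.8 in ES-LIF(-), 2132.3, 1870.6 and 2116.9 in CP, and 389.4, 474.6 and 405.6 in CM. It exceeded the array's own median on 2 of 3 ES-LIF(+) arrays, on 1 of 3 ES-LIF(-) arrays and on all CP and CM arrays. Its stem cell level therefore lay near that median, which was the brightness limit for testing, and the folds are taken over this dim baseline. CP stood above CM and CM above the stem cells, with no overlap. On the log2 scale Anxa8 differed from ES-LIF(+) by 4.16 in CP (17.9-fold, SE 0.30, adjusted p = 4.89e-08) and 1.93 in CM (3.82-fold, adjusted p = 5.04e-05). The size depends on the constant added before the log, since the CP value was 4.37 with 1 added and 3.67 with 64 added.

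Anxa7, also called synexin and known for calcium-driven membrane fusion, was called in none of the 6 comparisons. It read 3419, 3542.1 and 3866.3 in ES-LIF(+), 3076.8, 2826 and 3302.7 in ES-LIF(-), 2946.9, 3153.8 and 3090.7 in CP, and 3115, 3437.9 and 2860.7 in CM. The ES-LIF(+) arrays were above those of CP and ES-LIF(-), and overlapped those of CM. Its log2 fold change against ES-LIF(+) was -0.23 in CP (95% interval -0.41 to -0.05, adjusted p = 0.0327) and -0.20 in CM (adjusted p = 0.0482), both within 1.5-fold. With median centring both differences were -0.52 (adjusted p = 0.000768 and 0.000498), still within 1.5-fold.

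Set against ES-LIF(-) in place of ES-LIF(+), the same 7 annexins were called higher in CP and in CM, and 0 were lower in either. In CP 32.7% of tested genes were called, 18.2% higher and 14.5% lower, and in CM 48.7% were called, 24.2% higher and 24.4% lower. The median log2 fold change was 2.62 in CP and 2.75 in CM, against 0.01 and 0.03 over all tested genes. For Anxa7 it was 0.00 in CP (adjusted p = 0.999) and 0.03 in CM (adjusted p = 0.77).

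Other cell types' genes moved with the CP and CM stages, and their counts stand beside shares of 18.7% higher and 13.3% lower in CP and 25.7% higher and 23.9% lower in CM over all tested genes. Of the fibroblast and mesenchyme markers 8 of 8 were higher in CP and in CM than in the LIF-maintained cells. Of these, Lum, Pdgfra and Postn exceeded the array median on 0 of 6 stem cell arrays, and Dcn on 2 ES-LIF(-) arrays alone. All of these named genes therefore entered the test only through CP and CM. The summed signal of the 8 markers was 94053 to 100829.5 in CP and 50119 to 51202.5 in CM. It was 1058 to 1513 in ES-LIF(+) and 1204 to 1759 in ES-LIF(-). Smooth muscle markers were higher than in ES-LIF(+) for 4 of 5 in CP and for 5 of 5 in CM, and their sum was 29709.6 to 34012 in CP and 59594.5 to 68658 in CM, against 4107 to 5342 in ES-LIF(+). Set against ES-LIF(-), 2 of these 5 were higher and 1 lower in CP, beside 18.2% and 14.5% over all tested genes. In CM 4 of 5 were higher than in ES-LIF(-) and 0 lower, beside 24.2% and 24.4%. Cardiomyocyte markers were higher for 3 of 8 in CP (Tnnt2, Myl7 and Nppa) and 8 of 8 in CM, with sums of 1798 to 1963 in CP and 109508 to 123798 in CM, against 556 to 776.5 in ES-LIF(+). Tnnt2 averaged 514 in CP and 9.83 in ES-LIF(+), while Nkx2-5, a defining cardiac transcription factor, was not called in that comparison, at 93.5 in CP and 104 in ES-LIF(+). The Nkx2-5 signal was dim, above the array median on 0 of 3 CP and 2 of 3 ES-LIF(+) arrays. For CP cells the study examined NKX2-5 protein by its move into the nucleus, which an RNA signal does not measure. Tnnt2, Myl2, Nppa and Ryr2 exceeded the array median on 0 of 6 stem cell arrays. The smooth muscle marker Myh11 exceeded it on CM arrays alone. Pluripotency markers were lower than in ES-LIF(+) for 5 of 6 in CP and for 6 of 6 in CM. Their sums were 34609.8 to 35837.5 in CP and 7816 to 10649.9 in CM, against 59024 to 60396 in ES-LIF(+) and 33676 to 38717.6 in ES-LIF(-). Against ES-LIF(-), 3 of 6 were higher and 2 lower in CP, beside 18.2% and 14.5% over all tested genes.

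The remaining marker lists moved in part. Mesothelial and epithelial markers were higher for 2 of 7 (Msln and Upk3b) and lower for 1 (Epcam) in CP, and higher for 4 and lower for 1 in CM, with sums of 15652 to 16840 in CP and 15937.5 to 17893.7 in CM, against 11656 to 16464.7 in ES-LIF(+). Msln averaged 2323 in CP and 121 in CM, against 21.2 in ES-LIF(+). Epcam averaged 3010.5 in CP and 1935 in CM, against 6493 in ES-LIF(+). Msln exceeded the array median on CP arrays alone, and Upk3b on all CP and CM arrays and 1 ES-LIF(+) array. Both therefore entered the test only through stages in which they were high. Leukocyte markers were higher for 1 of 3 tested in CP (Lyz2) and 2 of 3 in CM (Lyz2 and Csf1r), with sums over all 6 of 1114 to 1457 in CP and 1633.5 to 1855 in CM, against 593 to 665 in ES-LIF(+), while the other 3, Ptprc, Itgam and Cd52, were too dim to test. Ptprc and Itgam were below the array median on every array and Cd52 above it on 1 CM array, whereas Csf1r was above it on all 12 arrays and Adgre1 on all CP and CM arrays. Endothelial markers were higher for 2 and lower for 2 of 5 tested in CP and higher for 3 and lower for 2 in CM, endoderm markers higher for 2 of 4 in CP and 3 of 4 in CM, and erythroid markers higher for 0 of 3 in CP and 2 of 3 in CM. Of these, Ttr and Hbb-bh1 exceeded the array median on CM arrays alone. Cdh5, Emcn and Sox17 passed the filter only through CP and CM arrays, in which they were high. The part of these cell types in the annexin changes was not tested. In bulk samples a different number of cells of a type and a different amount of RNA per cell cannot be told apart.

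Between CM and CP, 1 annexin was higher and 1 lower of 8, where 19.5% of tested genes were called, 9.04% higher and 10.4% lower, and the median was 0.14 against -0.04 over all tested genes. Anxa6 was the gene higher in CM, at 7373 ± 416 in CM against 2895 ± 130 in CP, a log2 fold change of 1.34 (2.54-fold, adjusted p = 3.64e-07). Anxa8 was the gene lower in CM, at 423 ± 45.2 in CM against 2039.9 ± 147 in CP, a log2 fold change of -2.23 (adjusted p = 4.88e-05). Over the marker lists in the same comparison, cardiomyocyte markers were higher in CM for 8 of 8, smooth muscle for 4 of 5, endothelial for 3 of 5 tested and erythroid for 2 of 3 tested, with none lower. Among the cardiomyocyte markers Ryr2 exceeded the array median on CM arrays alone, and Myl2 on those and 1 CP array. Among the other lists Myh11 and Hbb-bh1 exceeded it on CM arrays alone, Emcn on those and 1 CP array, and Cdh5 on those and 2 CP arrays. All of these genes therefore passed the filter only with the CM arrays, in which they were high. Hbb-bh1 ranged from 423.7 to 7947.1 within CM. Fibroblast and mesenchyme markers were lower in CM for 5 of 8 and higher for 0, pluripotency markers lower for 6 of 6, and epithelial and mesothelial markers higher for 2 (Krt8 and Krt18) and lower for 2 (Epcam and Msln) of 7. Msln entered the test only through CP, where it was high. The part of these cell types in the Anxa6 and Anxa8 changes was not tested.

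The remaining 6 annexins were not called between CM and CP. Anxa2 was 0.43 higher in CM (adjusted p = 0.00485) and Anxa3 0.51 higher (adjusted p = 0.021), each without overlap of the arrays and each under 1.5-fold. The differences were 0.11 for Anxa1 (adjusted p = 0.308), 0.17 for Anxa5 (adjusted p = 0.327), -0.10 for Anxa4 (adjusted p = 0.535) and 0.03 for Anxa7 (adjusted p = 0.823). For Anxa7 the 95% interval ran from -0.15 to 0.21, so a difference of 1.5-fold lay outside it.

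Withdrawal of LIF for 48 h gave a call for 1 annexin. In ES-LIF(-) 0 of 8 were called higher and 1 lower than in ES-LIF(+), where 7.68% of the 13145 tested genes were called, 526 of them higher and 484 (3.68%) lower, and the median was -0.28 against 0.03 over all tested genes. Anxa6 was the gene called lower, at 1062 ± 144 in ES-LIF(-) against 1669 ± 232 in ES-LIF(+), a log2 fold change of -0.64 (SE 0.11, adjusted p = 0.00115). That call was lost without ES-LIF(+) replicate 3 or without ES-LIF(-) replicate 1, at -0.54 in both cases. Without ES-LIF(+) replicate 2 the call rule also took Anxa2, and without ES-LIF(-) replicate 3 it took Anxa2 and Anxa3, so the count of lower annexins ran between 0 and 3. Anxa2 differed by -0.57 (adjusted p = 0.00213) and Anxa1 by -0.33 (adjusted p = 0.00911), both without overlap and both under 1.5-fold. A dimmer Anxa2 probe set had the opposite sign, at 0.59 (adjusted p = 0.23), and was not called. Anxa3 differed by -0.39 (adjusted p = 0.136), Anxa7 by -0.23 (adjusted p = 0.0893), Anxa8 by -0.20 (adjusted p = 0.757), Anxa4 by 0.26 (adjusted p = 0.167) and Anxa5 by 0.02 (adjusted p = 0.957).

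The order of the stages therefore differed between members. Anxa1, Anxa2, Anxa3 and Anxa6 ran from ES-LIF(-) as the lowest through ES-LIF(+) and CP to CM as the highest, but only Anxa6 had CM called above CP and ES-LIF(-) called below ES-LIF(+). Anxa5 had the same 2 upper stages with no call between the stem cell stages. Anxa4 and Anxa8 had CP above CM, and of these only Anxa8 had that step called. Anxa7 had ES-LIF(+) highest and no step between neighbours was called.

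The other probe sets of the same genes gave a check within the arrays. There were 11, of which 9 were bright enough to test, and Anxa3 and Anxa5 had none. In CP against ES-LIF(+), 5 of the 9 were called higher and 0 lower, where 19.3% of the 26083 tested probe sets were called higher. In no comparison did an other probe set and the one standing for its gene have opposite calls. Their signs matched for 8 of the 9 in CP against ES-LIF(+), 7 in CM against CP and 6 in ES-LIF(-) against ES-LIF(+). The second Anxa8 probe set read 1748.1, 1738.7 and 1794.9 in CP, against 109.6, 115.1 and 125.2 in ES-LIF(+), a log2 fold change of 3.75 (adjusted p = 2.77e-09), and it differed by -2.68 in CM against CP (adjusted p = 2.76e-07). This set was free of the _s_ suffix, which on the Anxa8 set used above marks probes that may match several related transcripts.

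A second Anxa6 set differed by -0.61 in ES-LIF(-) against ES-LIF(+) (adjusted p = 0.000721) and by 1.45 in CM against CP (adjusted p = 5.2e-08). The 2 dimmer Anxa6 sets were not called in CM against CP, at 0.24 (adjusted p = 0.743) and 0.69 (adjusted p = 0.161). They were also called in neither direction after LIF withdrawal, at 0.90 (adjusted p = 0.24) and -0.07 (adjusted p = 0.937), nor in CP against ES-LIF(+), at 0.70 (adjusted p = 0.219) and 0.13 (adjusted p = 0.786). The mean over the Anxa6 sets differed by -0.11 in ES-LIF(-) against ES-LIF(+) (adjusted p = 0.73), which lost that call. The other Anxa4 sets were higher in CP by 1.40 and 1.15 (adjusted p = 4.32e-07 and 0.00129), and a dimmer Anxa2 set by 1.46 (adjusted p = 0.000789). After LIF withdrawal the 2 tested Anxa2 sets differed in sign, at -0.57 for the brightest and 0.59 for the dimmer one (adjusted p = 0.23). One Anxa1 and 1 Anxa2 set stayed too dim to test, with an Anxa1 mean of 14.1 in CP and 22.7 in ES-LIF(+). Averaging all sets of a gene, dim ones included, therefore lowered the CP change of Anxa1 to 1.70 (adjusted p = 1.13e-05) and that of Anxa2 to 1.32 (adjusted p = 0.000367). For Anxa7 the sets disagreed, since another set was 0.36 higher in CP than in ES-LIF(+) (adjusted p = 0.0146), under 1.5-fold, and a dim one was called lower in CM than in ES-LIF(+), with signals of 97.7, 59.2 and 44.3 in CM against 134.8, 190.7 and 176.2 in ES-LIF(+) (log2 fold change -1.18, adjusted p = 0.00904).

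**Figure D3:**
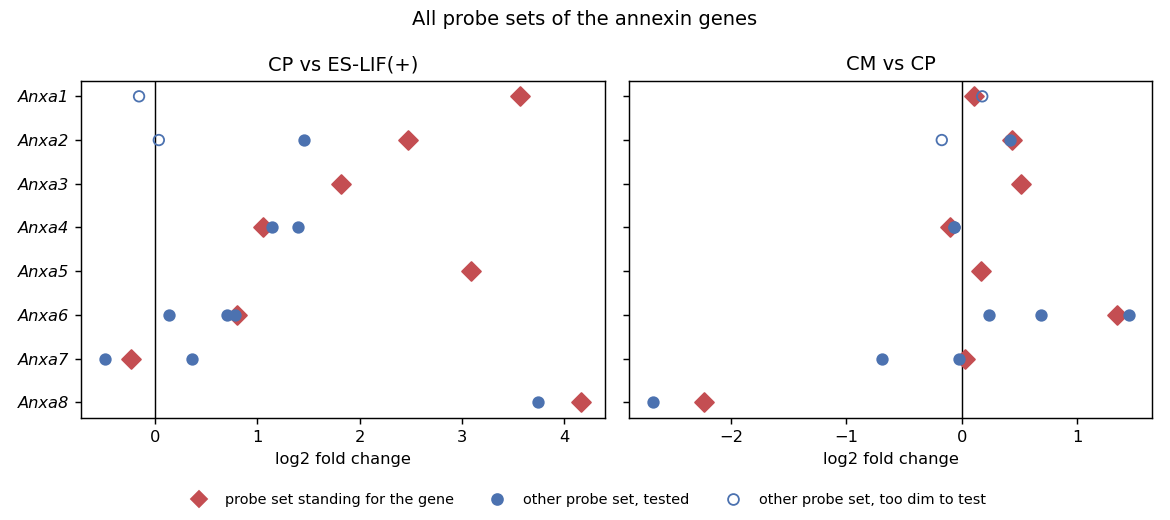
Log2 fold change of every probe set of the annexin genes in CP against ES-LIF(+) and in CM against CP, where diamonds are the sets standing for a gene, filled circles other tested sets and open circles sets too dim to test. The 2 Anxa8 sets lie together at 3.75 and 4.16 in CP, while Anxa7 sets fall on both sides of 0.

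Genes with the most similar profile over the 12 arrays were listed by Pearson's r of log2 signal, as a description in which the points share 4 stage means. Anxa1 was nearest to Col4a5 (r = 0.997), a basement membrane collagen, then Tm4sf1 and Ctsd (0.996 each). Anxa5 was nearest to Gsn, the actin-severing gelsolin, Thbs1, the matrix protein thrombospondin, and Ctsb, a cathepsin (0.997 each). Anxa2 and Anxa3 were both nearest to Myo1c (0.997 each), an unconventional myosin, followed by Serpinb9b (0.996) and 9530068E07Rik (0.995) for Anxa2 and by Cavin1 (0.994) and R3hdm4 (0.993) for Anxa3. Anxa6 was nearest to Sri (0.991), the calcium sensor sorcin of cardiac muscle, then Scp2 (0.988) and Actr1a (0.987). Anxa8 was nearest to Olr1 (0.993), a scavenger receptor, then Hsd11b1 (0.984) and Smpd3 (0.982), and Anxa4 to Lgals3bp (0.983), Mdm2 (0.981) and Loxl1 (0.98). The genes nearest to Anxa7 were 4930533K18Rik (0.885), Acot9 (0.854) and Cmtm6 (0.839). Within the family, Anxa1 with Anxa5 and Anxa2 with Anxa3 each reached 0.992, Anxa6 with Anxa8 reached 0.544, and Anxa7 lay between -0.58 and -0.15 with the others.

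Among the 3 other annexins looked up, Anxa9 and Anxa13 were too dim to test. Anxa10, an annexin known from stomach epithelium, read 25.2, 45.1 and 9.2 in ES-LIF(+), 60.9, 88.2 and 105.2 in ES-LIF(-), 209.8, 293.9 and 142.9 in CP, and 50.1, 52.2 and 48.3 in CM. Only its CP arrays exceeded their own medians, so it entered the test through the stage in which it was high. The log2 fold change was 2.48 in CP against ES-LIF(+) (adjusted p = 8.36e-05) and -1.75 in CM against CP (adjusted p = 0.00251).

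S100 proteins are small calcium sensors that dimerise and dock on annexin tails. Of 6 looked up, 4 were tested, and in CP these 4 were called higher than in ES-LIF(+), where 18.7% of all tested genes were. S100a10, the partner of Anxa2, read 8996.8, 9831 and 9531.9 in CP, against 5207.3, 4390.3 and 7018.1 in ES-LIF(+), a log2 fold change of 0.80 (adjusted p = 0.000638), and was not called between CM and CP (0.27, adjusted p = 0.218). S100a10 was above the array median on all 12 arrays, and its replicate 3 was the highest array in both LIF conditions. S100a6, a partner of several annexins, rose by 2.79 in CP (adjusted p = 1.87e-08) and was lower in ES-LIF(-) than in ES-LIF(+) (-0.96, adjusted p = 0.0032). S100a4, known from fibroblasts and motile cells, read 16642.5, 17102.4 and 18484.1 in CP, against 17.2, 63.5 and 53 in ES-LIF(+). It stood below the array median on every stem cell array and so entered the test only through CP and CM, and it was lower in CM than in CP (-2.66, adjusted p = 6.61e-05). S100a1, the S100 protein of cardiac muscle, gained 2.26 in CP against ES-LIF(+) (adjusted p = 2.36e-07) and was higher in CM than in CP by 1.17 (adjusted p = 0.00025).

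Of 14 genes of plasma membrane repair, 13 were tested, and in CP 6 were higher and 1 lower than in ES-LIF(+) (18.7% and 13.3% over all tested genes), with a median of 0.92 against 0.04. Myof, the ferlin myoferlin, was higher by 2.43 (adjusted p = 2.16e-08), Cavin1, a caveolar coat protein, by 2.20 (adjusted p = 5.26e-07), Smpd1, the acid sphingomyelinase, by 1.70 (adjusted p = 2.26e-09) and Capn2, a calpain, by 1.60 (adjusted p = 2.45e-07). Vps4b, an ATPase of the ESCRT machinery, was lower (-0.60, adjusted p = 0.00017). In CM against CP, 3 were higher and 0 lower (9.04% and 10.4% over all tested genes): Cav3, the muscle caveolin (4.21, adjusted p = 1.66e-06), Dysf, the muscle ferlin dysferlin (1.32, adjusted p = 0.000962), and Smpd1 (0.66, adjusted p = 7.37e-05). Cav3 passed the filter on low signals only through CM, at 1106.7, 901.6 and 813.7 in CM against 60.8, 43.2 and 13.6 in CP. Trim72, another muscle repair protein, was too dim to test.

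Phosphatidylserine is the lipid that Anxa5 binds, and 10 of 14 genes for its exposure or recognition were tested. In CP 6 were higher and 0 lower than in ES-LIF(+), beside 18.7% and 13.3% over all tested genes, with a median of 0.99 against 0.04. Axl, a receptor tyrosine kinase of phosphatidylserine bridging proteins, read 5394.3, 6591 and 4987.2 in CP, against 288.6, 288.6 and 244 in ES-LIF(+), a log2 fold change of 4.29 (adjusted p = 1.17e-10). Its ligand Gas6 read 5547.9, 5314.8 and 5717 in CP, against 532.2, 478.2 and 474.9 in ES-LIF(+), a log2 fold change of 3.44 (adjusted p = 2.13e-12). The related receptor Tyro3 had a CP difference of -0.02 (adjusted p = 0.932) and a called one of -1.12 in CM against CP (adjusted p = 4e-05), and the third receptor of the group, Mertk, had a CP difference of 0.27 (adjusted p = 0.38). The scramblase family gene Plscr3 was higher in CP by 1.54 (adjusted p = 2.26e-08), and Pros1, a ligand of the same receptors, by 1.16 (adjusted p = 1.01e-06).

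Anxa2 with S100a10 is known as a surface receptor for plasminogen and its activator. Of 8 fibrinolysis genes, 3 were tested. In CP 2 of these were called higher than in ES-LIF(+) and 0 lower, beside 18.7% and 13.3% over all tested genes. Plat, the tissue plasminogen activator, exceeded its ES-LIF(+) level in CP by 2.94 (adjusted p = 1.87e-07) and the plasminogen receptor gene Plgrkt by 0.78 (adjusted p = 0.000125), while the urokinase receptor gene Plaur was not called (0.56, adjusted p = 0.00151). Pla2g4a, the cytosolic phospholipase A2 that annexin A1 is known to restrain, averaged 3088 ± 160 in CP and 1401 ± 297 in CM, against 114 ± 7.20 in ES-LIF(+) (SD, n = 3 each). Its log2 fold change was 4.58 in CP against ES-LIF(+) (adjusted p = 3.12e-11) and -1.15 in CM against CP (adjusted p = 0.00011). Fpr2, which encodes a receptor for annexin A1, was not called in CP (-0.09, adjusted p = 0.888).

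Other calcium-binding families were looked up for the same comparison. Penta-EF-hand proteins, which include annexin partners, had 2 of 7 higher and 1 lower in CP than in ES-LIF(+), near the shares of 18.7% and 13.3% over all tested genes, with a median of 0.42 against 0.04. Those higher were Capn2 and Pef1 (0.74, adjusted p = 4.26e-05), the one lower was Gca (-0.75, adjusted p = 0.0221), and Pdcd6 was not called (-0.12, adjusted p = 0.2). Sri, the sorcin gene, differed by 0.50 in CP (adjusted p = 0.000421), under 1.5-fold, and was higher in CM than in CP (0.75, adjusted p = 2.21e-05). Copines bind calcium and phospholipid through C2 domains in place of the annexin core. They had 0 of 7 tested higher and 1 lower beside the same shares, with a median of 0.09. The gene lower was Cpne9 (-2.50, adjusted p = 0.00172). Cpne9 exceeded the array median on all ES-LIF(+) arrays, 1 ES-LIF(-) array and no CP or CM array. It therefore entered the test only through ES-LIF(+), where it was high. The differences between these lists and the annexins were not tested.

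**Figure D4:**
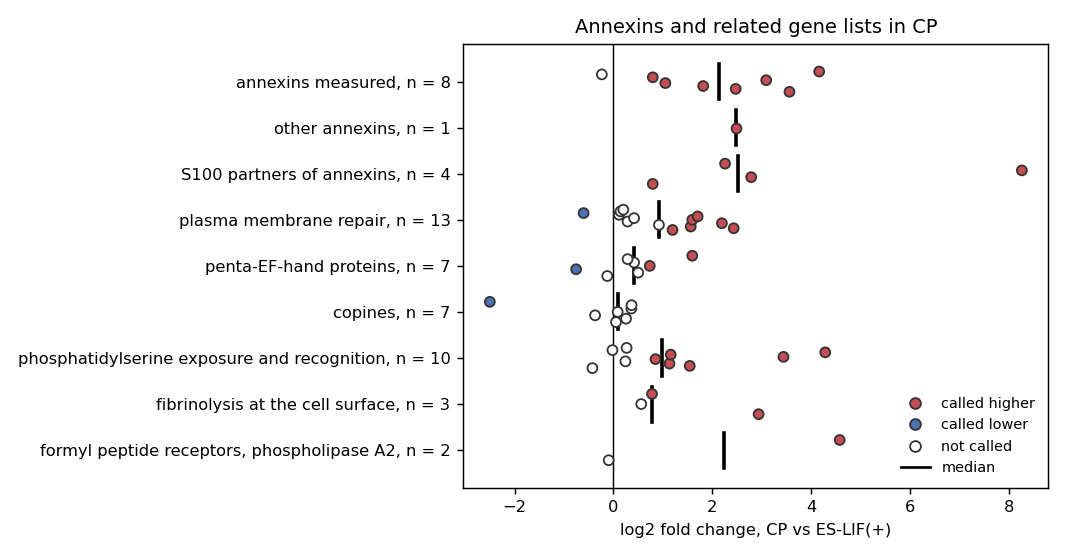
Log2 fold change in CP against ES-LIF(+) for the annexins and for 8 related gene lists, where points are tested genes, coloured by call, and vertical bars list medians, with n the number tested. Annexins and S100 partners have medians of 2.15 and 2.52, copines of 0.09.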

How the data were processed

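RNA of 12 samples was hybridised to Affymetrix Mouse 430 2.0 arrays, and the deposited intensity values are linear MAS 5.0 signals made by the authors. Their scaling equalises the trimmed mean of the arrays and not the medians. Of 45101 probe sets, 64 controls were left out, and 34945 named 1 gene, 932 several and 9160 none in the platform annotation. A gene's brightest probe set by mean over the 12 arrays stood for it. Log2(signal + 16) of all probe sets above their array's median on at least 3 of 12 arrays (26083) was fitted over 4 stages with limma 3.58.1 in R 4.3.3, with empirical Bayes moderation, a mean-variance trend and Benjamini-Hochberg adjustment over all of them, and the fit was tested on simulated data. The call rule stands in the results. The number of arrays limits the precision. All annexins were named, with the 3 genes of highest r for each, S100a10, and the up to 4 called genes of each list with the largest CP change. Vps4b, Cav3, Dysf, Trim72, Sri, Pdcd6, Tyro3, Mertk, Plaur, Fpr2 and single markers were named after their values were seen. Alternatives were other constants, filters, scalings, thresholds, the mean over probe sets, a replicate block and each array left out. Some genes of the lists are not reported here. RefSeq promoters were not found in the table used for Anxa3 and Anxa6. The annexins, the related lists and the marker lists were chosen with earlier results of these data known.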

Additional observations from a re-analysis of the deposited data

How the results depend on the processing

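The counts of 7 annexins higher in CP and in CM, against either stem cell stage, were within 6 to 7 under all alternatives run (6 where median centring, quantile normalization, a fold threshold of 2 or a filter on all 12 arrays took a gene away), and each array left out gave 7. The count passing the F test over the stages was 7 to 8. With no fold threshold, 1 annexin (Anxa7) was lower in CP and 1 in CM than in ES-LIF(+), against 0 each, 3 were lower in ES-LIF(-) than in ES-LIF(+) against 1, and 3 were higher in CM than in CP against 1. Dropping the threshold also raised the share of all tested probe sets higher in CM than in CP, from 8.7% to 13.5%. The shares lower over all probe sets were not counted at this setting. The ES-LIF(-) count was 0 with a fold threshold of 2 and 0 with the mean over probe sets, and 0 to 3 with arrays left out. The count lower in CM than in CP was 0, against 1, when genes had to exceed the median on all 12 arrays, because Anxa8 was then not tested. Log2 differences that changed sign were not called in the fit reported. They were Anxa2 in ES-LIF(-) against ES-LIF(+) with the mean over probe sets (0.10, adjusted p = 0.836), Anxa7 with median centring in CM against CP (-0.0041), CP against ES-LIF(-) (-0.27, adjusted p = 0.0477) and CM against ES-LIF(-) (-0.27, adjusted p = 0.038), and Anxa7 with the mean over probe sets in CM against CP (-0.23) and CM against ES-LIF(-) (-0.20). With arrays left out, Anxa5 in ES-LIF(-) against ES-LIF(+) ran from -0.10 to 0.12, Anxa8 in that comparison from -0.57 to 0.12, and Anxa7 from -0.037 to 0.095 in CM against CP, from -0.058 to 0.054 in CP against ES-LIF(-) and from -0.037 to 0.095 in CM against ES-LIF(-). The causes were not tested.

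In their deviations from the stage means the 18 same-number pairs correlated between -0.047 and 0.095, and different-number pairs between -0.090 and 0.053. Of 12 arrays, 3 matched best with their own number. Same-number pairs were all positive between ES-LIF(+) and ES-LIF(-) (0.095, 0.039 and 0.026) and between CP and CM (0.033, 0.028 and 0.016). A weak pairing is therefore not excluded. A batch grouped otherwise than by replicate number was not tested. With the replicate block, the counts stayed at 7 higher in CP and 7 in CM than in ES-LIF(+), 1 lower in ES-LIF(-), and 1 higher and 1 lower in CM against CP.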
